A study of Homo sapiens with 12 samples.

Results

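K-562 cells kept for 48 h in 5 µM Si-711 were compared with untreated K-562 cells of the same study, at the level of polyadenylated RNA. Si-711 is a compound that the series describes as an inhibitor of SIRT1 and of a close family member. The study has 12 libraries in 4 groups of 3 independent biological replicates, namely cells at 0, 8, 24 and 48 h of exposure, and the comparison rests on 6 of them, the 3 at 0 h and the 3 at 48 h. K-562 is 1 established human line from a chronic myeloid leukemia, carries the BCR-ABL1 fusion, and has erythroid and megakaryocytic features. All groups are the same line, and neither vehicle libraries nor untreated libraries of the later times are part of the design, so the effects of exposure and of time in culture cannot be told apart. Of 51112 genes in the table, 14245 were tested, those that reached 10 normalized counts in 3 or more of the 6 libraries. Of those tested, 265 reached it only in 48 h libraries and 399 only in untreated libraries, so the filter fixed the direction of their change.

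Sirtuins are deacetylases that consume NAD to remove acyl groups from lysines of histones, transcription factors and enzymes, and SIRT1 acts mainly in the nucleus. Growth of K-562 cells depends on BCR-ABL1 signalling and on MYC, a transcription factor that drives ribosome production, nucleotide synthesis and cell division. Cells of this line make embryonic and fetal globins under erythroid factors such as GATA1, TAL1 and KLF1, and can shift between erythroid, megakaryocytic and myeloid programmes.

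A gene was called when the moderated test of limma gave a Benjamini-Hochberg adjusted p under 0.05 over all genes tested, and all adjusted p-values below are of that kind. At 48 h, 9926 of 14245 genes (69.7%) were called, of which 4898 (34.4%) were higher and 5028 (35.3%) lower than in untreated cells. By 2-fold or more, 2649 genes (18.6%) rose and 2954 (20.7%) fell. The 3 libraries of 48 h all lay above the 3 untreated ones for 5099 genes (35.8%) and all lay below for 5255 (36.9%). The median log2 fold change over all genes was -0.02. These shares are the background for every gene list below, and fold changes are on the log2(value + 1) scale.

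Libraries of a group resembled each other more than libraries of the other group. Pearson's r across genes was 0.975 to 0.978 among untreated libraries, 0.967 to 0.969 among the 48 h libraries and 0.863 to 0.876 between them. The untreated libraries summed to 31387546 to 31718907 normalized counts and the 48 h libraries to 34614827 to 37117837. Markers of the line were present at both times, and GATA1 was at 5719, 5994 and 6263 in the untreated libraries and 8649, 9722 and 7328 at 48 h, TFRC, the transferrin receptor, at 35630, 35810 and 34630 in the untreated libraries and 15860, 13000 and 12220 at 48 h, and ABL1 at 10650, 12000 and 12520 in the untreated libraries and 5946, 7468 and 5596 at 48 h. Untreated replicate 3 stood apart from the other untreated libraries, with globins at 0.954% of its total against 1.89% at most, and with the highest untreated sums of granulocyte and monocyte, lymphocyte, and mast cell and basophil markers. Its part in the results was not tested beyond the values without it that are given below.

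**Figure D1:**
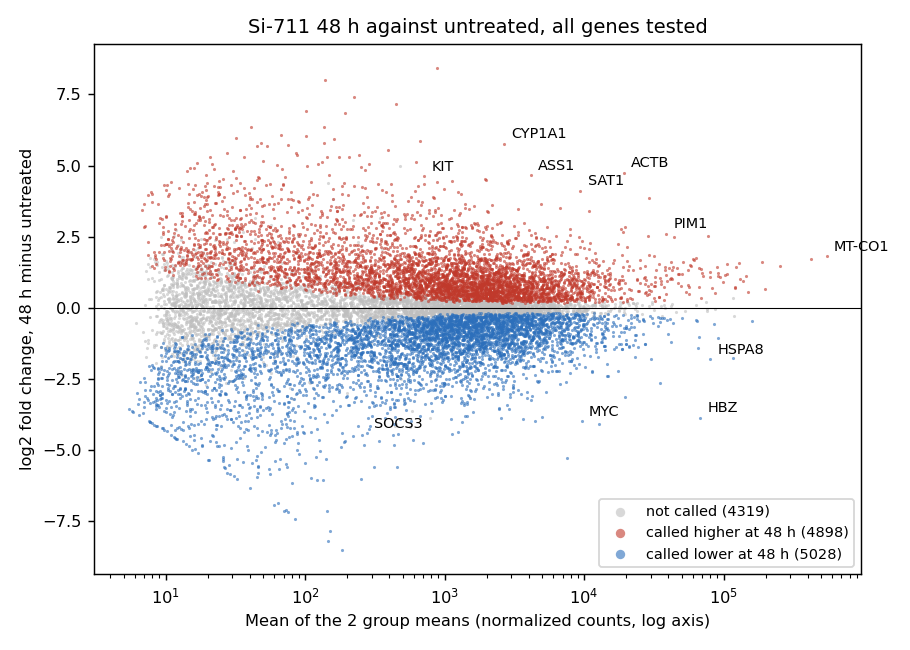
Each point is 1 of the 14245 genes tested, with the mean of the group means in normalized counts (log axis) on the horizontal axis and the log2 fold change of 48 h against untreated on the vertical axis, and colours mark genes called higher, called lower or not called. Called genes lie on both sides in near equal numbers (4898 higher and 5028 lower), with CYP1A1 at 5.76 and ACTB at 4.75 among the labelled rises and SOCS3 at -4.40 and MYC at -3.98 among the labelled falls.

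SIRT1, the first named target of the compound, lies at chr10:67884669-67918390 on GRCh38, and its RNA was at 1560, 1696 and 1380 in the untreated libraries and 545, 869.7 and 755 at 48 h. All 48 h libraries were below all untreated ones (log2 fold change -1.12, SE 0.15, adjusted p = 1.5e-05). The mean was 1125 at 8 h and 997 at 24 h. Of 6 tested sirtuins, 3 fell and none rose, against 35.3% and 34.4% of all genes. SIRT3, the main mitochondrial deacetylase of the family, fell from 903 ± 17.7 to 645 ± 148 normalized counts (SD, n = 3; log2 fold change -0.51). SIRT6, a nuclear sirtuin of chromatin and DNA repair, was at 888, 965 and 1129 in the untreated libraries and 845, 685 and 728 at 48 h, with a log2 fold change of -0.40 that did not pass the threshold without untreated replicate 3 (-0.30, adjusted p = 0.0761) or without 48 h replicate 2 (-0.33, adjusted p = 0.057), after quantile normalization (-0.32, adjusted p = 0.0524) or with the trend in transcript length and GC content removed (-0.16, adjusted p = 0.339).

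Genes of NAD metabolism were more often higher than all genes, with 10 of 16 tested members up and 1 down (median log2 fold change 0.49). The count down was 2 without untreated replicate 1, 24 h replicate 1 or 48 h replicate 1. It was also 2 with the 6 libraries alone, after quantile normalization and with the trend in transcript length and GC content removed. With equal library totals it was 3, and the median was 0.30. NNT, the mitochondrial transhydrogenase that makes NADPH at the cost of NADH, was at 309, 803 and 436 in the untreated libraries and 3605, 3632 and 3330 at 48 h. Its 48 h libraries all exceeded the untreated ones, among which replicate 2 was highest (log2 fold change 2.88, SE 0.29, adjusted p = 1.19e-06). NMRK1, a kinase of nicotinamide riboside salvage, rose by 2.30 on the log2 scale. The member that fell was PARP1, the main poly-ADP-ribose polymerase of DNA damage and a large consumer of NAD, which was at 22990, 22620 and 24750 in the untreated libraries and 6087, 5943 and 5711 at 48 h (log2 fold change -1.99, SE 0.08, adjusted p = 1.7e-09). Its paralog PARP2 rose (log2 fold change 1.26).

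Of 11 tested zinc-dependent lysine deacetylases 6 rose and 2 fell (median 0.39), beside 34.4% and 35.3% of all genes. HDAC5, a class II enzyme that shuttles between nucleus and cytoplasm, went from 952 ± 86.8 to 2198 ± 323 normalized counts (1.20), and HDAC4, HDAC6, HDAC7 and HDAC10 of the same class and HDAC3 of class I also rose. The members that fell were HDAC1 (-0.68) and HDAC2 (-0.55), which share nuclear corepressor complexes. Among 15 acetyltransferases 6 rose and 6 fell. EP300, the coactivator p300, was at 1893, 2362 and 2721 in the untreated libraries and 649, 329.8 and 537 at 48 h, and HAT1, which acetylates newly made histone H4, at 5128, 5030 and 5026 in the untreated libraries and 2263, 2147 and 2367 at 48 h. Neither overlapped between groups, and both fell (log2 fold changes -2.24 and -1.16).

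Globin RNA fell at 48 h for all 10 globin genes tested (median log2 fold change -2.43, against 35.3% of all genes called lower and a median of -0.02). Of the 10, 1 passed the filter on low values through the untreated libraries alone, so the direction of its change was fixed. Summed over the 10 genes, globins were at 495900 ± 167300 normalized counts in untreated cells and 108800 ± 3589 at 48 h (SD, n = 3), which is 4.56-fold lower. As a share of the library, they went from 1.57% to 0.302%, after 0.177% at 8 h and 0.225% at 24 h. The exact two-sided permutation test gave p = 0.1, the smallest that 3 against 3 libraries allow. In bulk RNA, fewer cells that express a gene and less RNA per cell cannot be told apart.

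HBZ, the embryonic zeta globin at chr16:152687-154503, was at 153400, 163100 and 68310 in the untreated libraries and 8683, 7506 and 8377 at 48 h. The 48 h libraries were close to each other, and untreated replicate 3 was low among the untreated ones but still far above them (log2 fold change -3.87, SE 0.37, adjusted p = 7.71e-07; -4.27 without that library). HBG2, a fetal gamma globin, was at 217400, 211900 and 113100 in the untreated libraries and 49610, 49370 and 53680 at 48 h (log2 fold change -1.77, SE 0.25, adjusted p = 2.88e-05; -2.08 without untreated replicate 3). HBG1 and HBG2 are near-identical and reads can be split between them by the estimate, so their sum is safer, and it was 3.23-fold lower at 48 h. Likewise HBA1 and HBA2, the alpha globins, summed to 6.99-fold less. HBE1, the embryonic epsilon globin, fell from 18880 ± 6423 to 3865 ± 127 (log2 fold change -2.22). BGLT3, a long non-coding RNA between the fetal and adult globin genes, was at 327, 371 and 204 in untreated libraries and was listed at 0 in 48 h libraries 1 and 3 and at 0.967 in library 2.

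Enzymes that make heme, the group that globin carries, were lower as well. Of 14 tested, 8 fell and 2 rose (median -0.63). FECH, ferrochelatase, which inserts iron in the last step, was at 2688, 3012 and 1868 in the untreated libraries and 227, 314 and 176 at 48 h (log2 fold change -3.41, SE 0.24, adjusted p = 4.75e-08). Every 48 h library was below every untreated one, and untreated replicate 3 was the lowest untreated library. UROD, uroporphyrinogen decarboxylase, fell by 1.35 and ABCB10, a mitochondrial transporter of the erythroid heme pathway, by 1.52 on the log2 scale. ALAD, the enzyme of the second step, rose instead (0.97).

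Of 21 erythroid and megakaryocytic transcription factors 9 rose and 8 fell, beside 34.4% and 35.3% of all genes. KLF1, the erythroid Krüppel-like factor that activates globin and membrane genes, was at 7687, 7737 and 6742 in the untreated libraries and 1312, 2138 and 1080 at 48 h (log2 fold change -2.35, SE 0.22, adjusted p = 6.72e-07). TAL1, the SCL factor that binds DNA with GATA1, was at 5849, 5841 and 4327 in the untreated libraries and 719, 973 and 736 at 48 h (log2 fold change -2.72, SE 0.17, adjusted p = 1.84e-08). No library of 48 h reached the untreated range for either gene. GFI1B, a repressor needed for erythroid and platelet lineages, fell by 2.18, and ZFPM1, the GATA1 cofactor FOG1, by 2.24 on the log2 scale. GATA1 itself rose (0.51).

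Genes of the red cell membrane and skeleton fell more often than they rose (14 and 6 of 26 tested, median -0.39), while their summed RNA hardly differed, at 119900 ± 10450 and 116700 ± 6647 normalized counts (SD, n = 3; exact two-sided permutation p = 0.7). Of the 26, 1 passed the filter on low values through the untreated libraries alone, so the direction of its change was fixed. AQP1, the water channel of red cells, was at 683, 727 and 359 in the untreated libraries and 53.5, 45.8 and 56 at 48 h, and ERMAP, an erythroid membrane protein, at 5288, 5166 and 3140 in the untreated libraries and 511, 363 and 288 at 48 h. The groups were separate for both genes (log2 fold changes -3.42 and -3.55). SLC4A1, the anion exchanger band 3, was at 502, 433 and 116 in the untreated libraries and 7.79, 17.4 and 4.9 at 48 h, and its log2 fold change of -4.90 was -5.57 without untreated replicate 3. CD44, an adhesion receptor of early progenitors that is lost as red cells mature, rose from 239 ± 56 to 2305 ± 402 (log2 fold change 3.28).

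**Figure D2:**
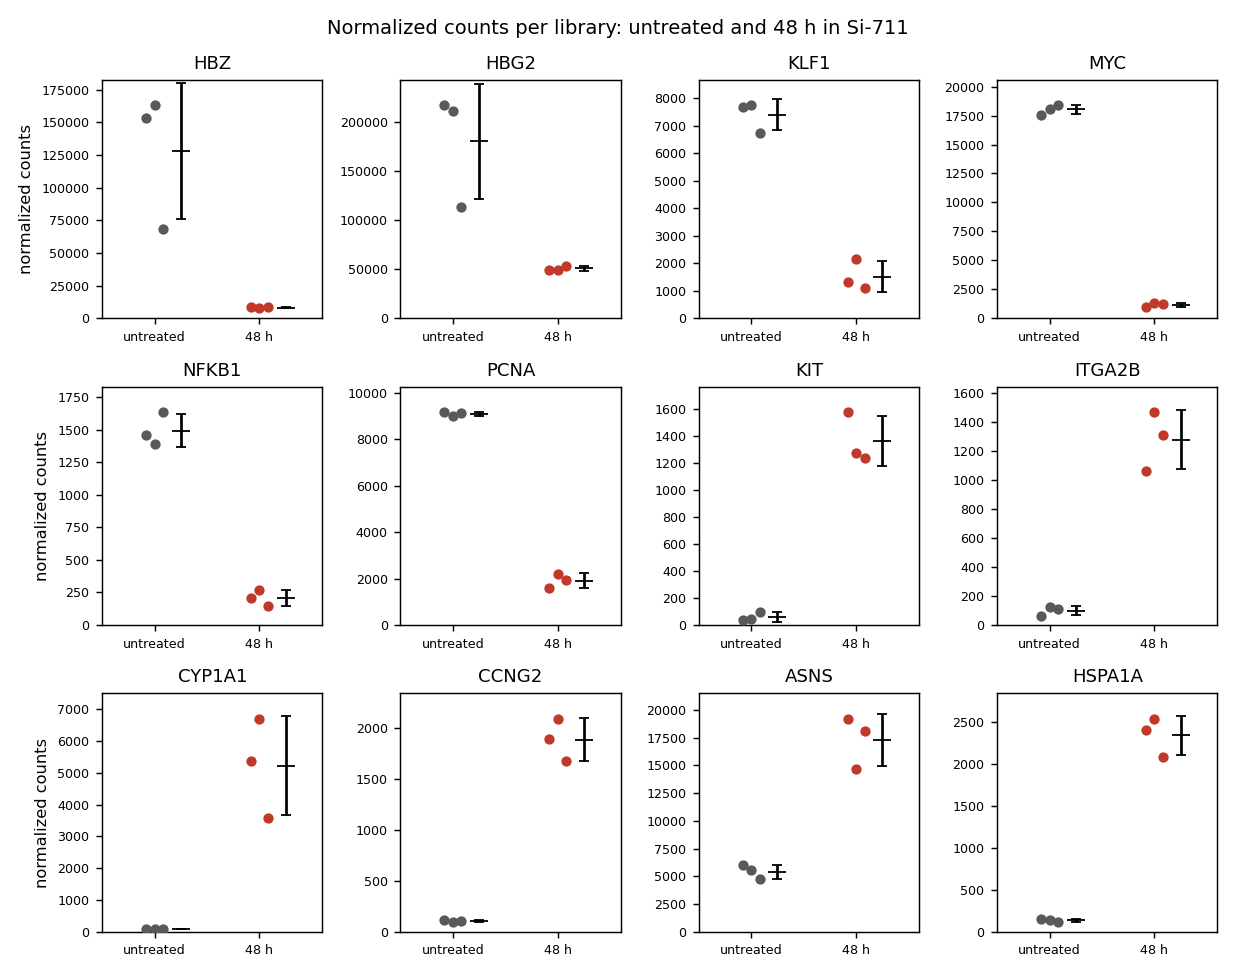
Normalized counts of 12 genes in each library, on linear axes that start at 0, untreated and 48 h side by side, with points for the 3 replicates and the mean ± SD drawn beside them. HBZ, HBG2, KLF1, MYC, NFKB1 and PCNA lie lower at 48 h, KIT, ITGA2B, CYP1A1, CCNG2, ASNS and HSPA1A lie higher, and no gene of the 12 overlaps between the groups.

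Markers of other blood lineages were measured in the same cells. Of 23 granulocyte and monocyte genes 11 passed the filter on low values, 3 of them through the 48 h libraries alone, so no count over those 11 is read. Over the whole list, summed RNA was 3981 ± 568 normalized counts in untreated cells and 12060 ± 541 at 48 h (SD, n = 3), 3.03-fold higher, with exact p = 0.1, and 11 of 23 markers stayed below 10 in all 48 h libraries, among them MPO, ELANE, CTSG, S100A8 and S100A9. LYZ, lysozyme, was at 413, 350.4 and 722 in the untreated libraries and 3383, 3584 and 3132 at 48 h (log2 fold change 2.83, SE 0.22, adjusted p = 1.18e-07), and SPI1, the myeloid factor PU.1, at 312, 278 and 565 in the untreated libraries and 2229, 1496 and 1834 at 48 h (log2 fold change 2.32, SE 0.22, adjusted p = 8.48e-07). CSF3R, which binds the growth factor of granulocytes, rose by 3.26 and ITGAM, an integrin of myeloid cells, by 3.67 on the log2 scale. The 48 h libraries were above the untreated ones for these genes, and untreated replicate 3 was the highest untreated library for LYZ, SPI1 and CSF3R. CEBPA and CEBPB, factors of granulocyte differentiation, fell (-0.91 and -0.61), but neither call held once the trend with transcript length and GC content was removed (-0.38, adjusted p = 0.142, and -0.19, adjusted p = 0.146). CYBB, of the same list, fell too (-0.57) and lost its call with that trend removed (-0.335, adjusted p = 0.142). CD33, the largest part of the list's sum, was at 1428, 1683 and 1886 in the untreated libraries and 5156, 4614 and 4875 at 48 h.

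KIT, the receptor of stem cell factor, which progenitors and mast cells carry, was at 37.5, 42.5 and 98.2 in the untreated libraries and 1580, 1273 and 1240 at 48 h. Every 48 h library exceeded every untreated one, of which replicate 3 was highest (log2 fold change 4.63, SE 0.30, adjusted p = 3.12e-08). SIGLEC6, a sialic acid receptor of mast cells and placenta, was at 15.8, 12 and 21.8 in the untreated libraries and 496, 737 and 329.7 at 48 h (log2 fold change 4.86, SE 0.42, adjusted p = 3.47e-07). The 13 mast cell and basophil markers summed to 117 ± 43.4 normalized counts in untreated cells and 2034 ± 310 at 48 h (SD, n = 3), 17.4-fold more, yet TPSAB1, CPA3, FCER1A and CMA1, which define the mature cells, were listed at 0 in all 6 libraries. Most of the 48 h sum was KIT and SIGLEC6, so its ratio largely repeats the values of these genes. Of the platelet lineage, ITGA2B, the alpha chain of the fibrinogen receptor, was at 62.9, 124 and 109.5 in the untreated libraries and 1060, 1468 and 1308 at 48 h (log2 fold change 3.73, SE 0.26, adjusted p = 4.5e-08) and THBS1, thrombospondin, rose by 1.44. Other markers of that lineage were lower. TUBB1, the beta tubulin of platelets, was at 386, 323 and 145 in the untreated libraries and 8.59, 62.9 and 10.9 at 48 h, separate between groups (log2 fold change -3.76). GP1BB, a chain of the von Willebrand factor receptor, was at 4492, 5285 and 5024 in the untreated libraries and 2281, 3178 and 2321 at 48 h, with a log2 fold change of -0.94 that lost its call with the trend in transcript length and GC content removed (-0.36, adjusted p = 0.126). Of 8 tested platelet markers 4 rose and 2 fell, beside 34.4% and 35.3% of all genes. The 22 megakaryocyte and platelet markers summed to 8968 ± 766 and 10920 ± 1501 normalized counts (SD, n = 3), a ratio of 1.22. Lymphocyte markers summed to 279 ± 82.2 and 589 ± 57.2, and 13 of 20 were under 10 in all 48 h libraries, MS4A1, CD8A and CD5 being listed at 0 throughout. The part of cells with such markers in the other changes was not tested.

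MYC was at 17580, 18110 and 18390 in the untreated libraries and 943, 1303 and 1203 at 48 h. Untreated libraries were within a narrow range and all 48 h libraries were far below it (log2 fold change -3.98, SE 0.19, adjusted p = 3.58e-09). Its means at 8 and 24 h were 11460 and 8874. MXD1, which pairs with MAX in place of MYC and represses the same sites, was at 781, 794 and 803 in the untreated libraries and 3633, 3452 and 3578 at 48 h (log2 fold change 2.16, SE 0.10, adjusted p = 2.53e-09). MLXIP, a glucose-sensing partner of MLX known as MondoA, rose from 4726 ± 256 to 15750 ± 1014 (log2 fold change 1.74), and MYCL, a MYC paralog, rose by 1.85. MAX, the shared partner, was at 2364, 2465 and 2775 in the untreated libraries and 2441, 2171 and 2074 at 48 h, with overlapping groups (adjusted p = 0.146; 0.0127, lower, with equal library totals). In the MYC network 6 of 11 tested members rose and 4 fell, beside 34.4% and 35.3% of all genes.

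Nucleolar genes of ribosome biogenesis, many of them textbook MYC targets, were lower. Of 36 tested, 31 fell and 3 rose (median -1.02), where 35.3% of all genes fell. UTP20 and UTP4 are subunits of the complex that processes the precursor of small subunit RNA, and their promoters are printed because both hold the E-box CACGTG that MYC with MAX can bind. The 250 bases before the RefSeq gene start (GRCh38.p14) are written 5′ to 3′ along the gene, with the E-box in capitals, UTP20 at chr12:101279855-101280104, plus strand and UTP4 at chr16:69132399-69132648, plus strand.
UTP20: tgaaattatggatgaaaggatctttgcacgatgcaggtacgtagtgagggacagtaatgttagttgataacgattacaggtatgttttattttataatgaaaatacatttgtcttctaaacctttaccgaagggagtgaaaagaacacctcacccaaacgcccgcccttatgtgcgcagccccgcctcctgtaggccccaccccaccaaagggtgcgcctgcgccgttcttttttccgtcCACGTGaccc
UTP4: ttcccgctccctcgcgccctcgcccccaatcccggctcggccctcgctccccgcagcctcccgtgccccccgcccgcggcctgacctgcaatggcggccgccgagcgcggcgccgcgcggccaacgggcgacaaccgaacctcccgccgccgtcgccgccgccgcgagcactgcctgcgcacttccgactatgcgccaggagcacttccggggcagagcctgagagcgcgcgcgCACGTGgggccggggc
The E-box, searched as CACGTG on both strands, which read alike, was in 10 of 31 nucleolar promoters with a sequence (32.3%) and in 10.1% of the promoters of all tested genes, within 250 bases before to 50 bases after the start. It was in 7.68% of promoters of genes that rose by 2-fold or more and in 12.2% of those that fell so far. Both promoters were picked after the matches were known, and a match is a description of the letters and not a binding site.

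UTP20 was at 4204, 4303 and 4381 in the untreated libraries and 826, 670.2 and 809 at 48 h (log2 fold change -2.49, SE 0.13, adjusted p = 5.96e-09), and UTP4 at 8274, 8008 and 8274 in the untreated libraries and 2191, 1488 and 1594 at 48 h (log2 fold change -2.24, SE 0.15, adjusted p = 3.48e-08). RRS1, a regulator of ribosome assembly, was at 2428, 2680 and 2871 in the untreated libraries and 489, 742 and 726 at 48 h (log2 fold change -2.05, SE 0.15, adjusted p = 7.93e-08). Groups were separate in all 3 genes, and the 48 h level was lower in every library. POLR1B, the second largest subunit of RNA polymerase I, which transcribes ribosomal RNA, fell from 4643 ± 259.7 to 1394 ± 215 (log2 fold change -1.75). Members that rose were DDX10, NOP10 and WDR12, the last of which turned to -0.13 with the trend in transcript length and GC content removed. NPM1, nucleophosmin, was not called, at 101600, 99530 and 106600 in the untreated libraries and 141600, 107100 and 141000 at 48 h (log2 fold change 0.33, adjusted p = 0.05), and was called higher in 8 other settings and lower after quantile normalization (-0.32, adjusted p = 0.00806). RNA polymerase subunits as a list had 16 of 26 members lower and 4 higher (median -0.48), with POLR2A, the largest subunit of RNA polymerase II, at a log2 fold change of 1.95.

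Ribosomal protein genes moved the other way from the nucleolar genes. Of 77 tested, 70 rose and 4 fell (median 1.08; 34.4% of all genes rose), namely 44 of 46 of the large and 26 of 31 of the small subunit up. Their sum was 2534000 ± 101300 normalized counts in untreated cells and 5296000 ± 478500 at 48 h (SD, n = 3), and their share of the library went from 8.04% to 14.7% after 8.09% at 8 h and 9.47% at 24 h (exact two-sided permutation p = 0.1, untreated against 48 h). RPL3, a core protein of the large subunit, was at 65140, 65860 and 63060 in the untreated libraries and 208900, 171800 and 199500 at 48 h (log2 fold change 1.58, SE 0.10, adjusted p = 2.05e-08). RPL12, of the stalk base, was at 30340, 29940 and 26760 in the untreated libraries and 100300, 91200 and 102000 at 48 h (log2 fold change 1.75, SE 0.10, adjusted p = 1.45e-08), and RPL36A at 15540, 14030 and 12550 in the untreated libraries and 49070, 46850 and 52570 at 48 h (log2 fold change 1.82, SE 0.09, adjusted p = 2.8e-09). Every 48 h library was above every untreated one in these 3 genes. RPL6, RPL26, RPS7 and RPS26 fell, with RPS26 at -0.49 and RPS7 not called without untreated replicate 1 or 48 h replicate 2, and RPS9 was listed at 0 in replicate 2 of both groups.

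Translation factors and the host genes of small nucleolar RNAs share the short 5′ pyrimidine tract of ribosomal protein RNAs in several members. Of 39 tested translation factors 20 rose and 14 fell, the share that fell being near that of all genes (35.3%). EEF2, the factor that moves the ribosome along, was at 89860, 94060 and 94280 in the untreated libraries and 266000, 237200 and 357900 at 48 h (log2 fold change 1.61, SE 0.13, adjusted p = 2.03e-07). All 4 tested elongation factors rose, 6 of 11 EIF3 subunits rose with EIF3E at 1.94, and 4 of 7 EIF4 factors fell. EIF5, which selects the start codon, fell by 1.80 on the log2 scale. GAS5, a non-coding host of small nucleolar RNAs, was at 9127, 8927 and 7423 in the untreated libraries and 48390, 45100 and 52910 at 48 h (log2 fold change 2.53, SE 0.12, adjusted p = 3.64e-09). ZFAS1 went from 2154 ± 237 to 8583 ± 788 (2.00), and 9 of 14 tested host genes rose and 2 fell (SNHG3 and SNHG12, the latter not with the length and GC trend removed), with 2.11-fold more RNA in sum. Untreated and 48 h libraries were apart for EEF2, GAS5 and ZFAS1.

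**Figure D3:**
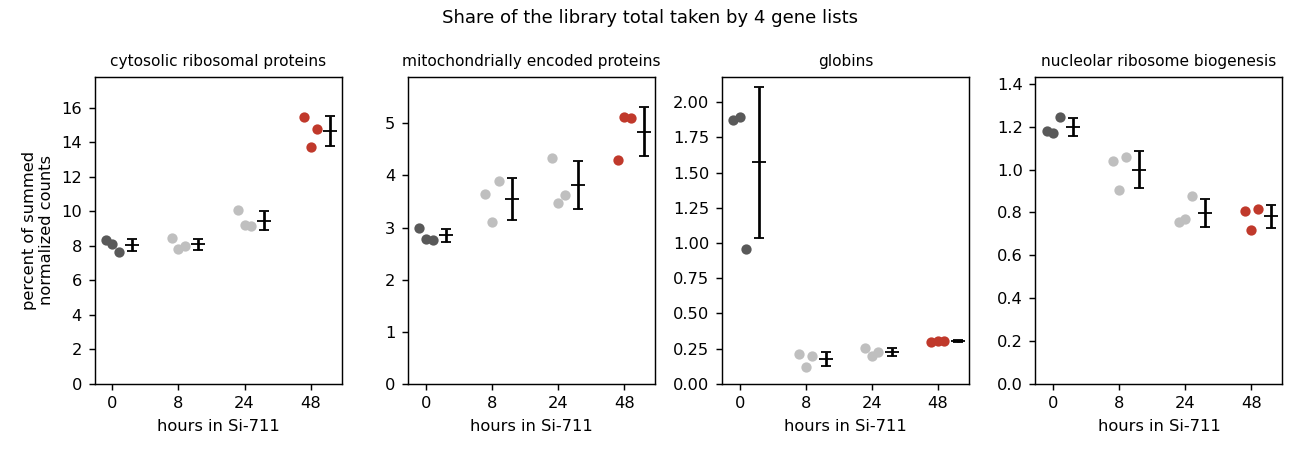
Share of the library total, in percent, of 4 gene lists against hours in Si-711, with 1 point per library and the mean ± SD beside the points (n = 3). Ribosomal protein RNA goes from 8.04% to 14.7% and RNA of mitochondrially encoded proteins from 2.85% to 4.84%, while globins go from 1.57% to 0.302% and nucleolar genes from 1.2% to 0.781%.

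RNA from the mitochondrial genome took a larger share at 48 h, though not every gene of it rose. All 37 genes of that genome made up 3.56% of the untreated libraries and 6.89% of the 48 h ones, and the 13 protein genes 2.85% and 4.84% (exact p = 0.1 for both). Among the 37, 22 were listed at 0 in all 6 libraries and add nothing to the share. Of the 13, 5 rose and 5 fell, beside 34.4% and 35.3% of all genes. MT-CO1, the catalytic subunit of cytochrome oxidase, was at 260700, 244000 and 222800 in the untreated libraries and 719800, 911100 and 922700 at 48 h (log2 fold change 1.81, SE 0.15, adjusted p = 2.5e-07), and MT-ND4, of complex I, at 144300, 131600 and 130200 in the untreated libraries and 371400, 345900 and 403300 at 48 h (log2 fold change 1.46, SE 0.16, adjusted p = 2.11e-06). MT-CYB, cytochrome b, was at 50280, 45900 and 44060 in the untreated libraries and 12050, 12530 and 15660 at 48 h (log2 fold change -1.81, SE 0.15, adjusted p = 1.82e-07). The first pair was higher and MT-CYB lower in every 48 h library. MT-ND6, the complex I gene read from the other strand than the remaining protein genes, was at 938, 987 and 1041 in the untreated libraries and 121, 138 and 149 at 48 h (log2 fold change -2.86, SE 0.28, adjusted p = 1.16e-06). MT-RNR2, the large mitochondrial ribosomal RNA, rose by 1.70. Scaling bore on these values. MT-CO1 was at 0.00, MT-RNR2 at 0.42 and MT-ND4 at 0.70 after quantile normalization, where the highest gene of each library is set equal, and under that scaling 3 rather than 5 protein genes were higher.

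**Figure D4:**
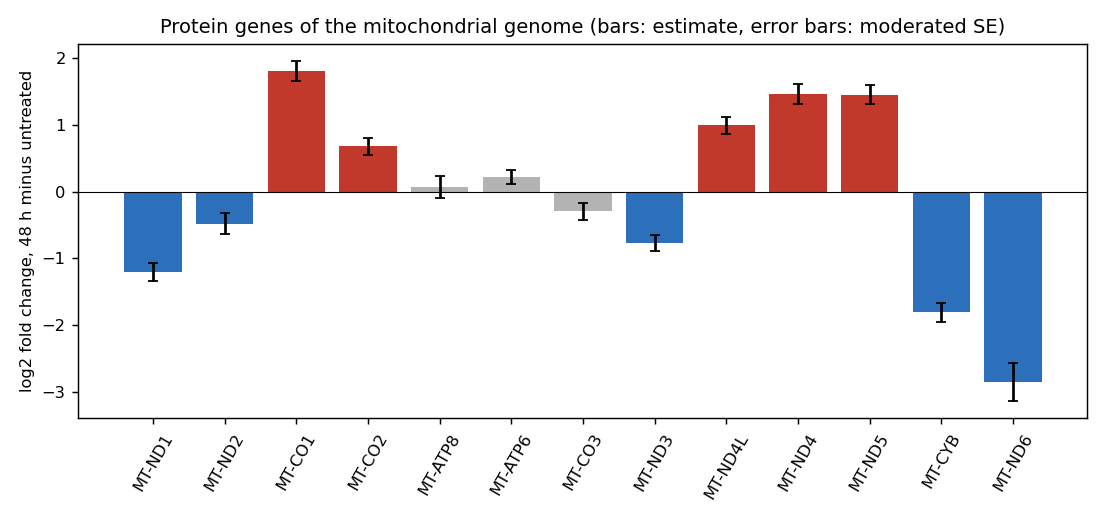
Log2 fold change of 48 h against untreated for the 13 protein genes of the mitochondrial genome, with bars for the moderated SE. MT-CO1 (1.81), MT-ND4 (1.46) and MT-ND5 (1.45) lie above 0, and MT-ND6 (-2.86), MT-CYB (-1.81) and MT-ND1 (-1.21) below.

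Nuclear genes of the respiratory chain and ATP synthase rose in 41 of 76 tested members and fell in 17 (median 0.28; 0.17 with the length and GC trend removed), and their share of the library was 1.5% in both groups. Of complex IV, 8 of 10 rose and none fell. Complex I had 19 of 37 up and 10 down, and complex II none of 4 in either direction. COX7B of complex IV rose by 1.37 and UQCRB of complex III by 1.52 on the log2 scale. NDUFC2, a small subunit of complex I, fell by 1.63. Mitochondrial ribosomal proteins had 19 of 74 members higher and 30 lower, beside 34.4% and 35.3% of all genes.

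Genes of DNA replication fell in 29 of 42 tested members and rose in 4 (median -0.56). All 7 MCM genes tested, of the replicative helicase and MCM10, fell (median -1.20). PCNA and MCM7 are shown as promoters that hold TTTCCCGC, a motif of E2F factors, which switch on replication genes, and PLK1 and ESPL1 as mitotic promoters that hold TTTGAA, the cell cycle homology region bound by MuvB complexes. The 250 bases before the RefSeq start (GRCh38.p14) are given 5′ to 3′ along the gene with the motif, or its reverse complement, in capitals. They lie at chr20:5126623-5126872, minus strand for PCNA, chr7:100101398-100101647, minus strand for MCM7, chr16:23678639-23678888, plus strand for PLK1 and chr12:53268049-53268298, plus strand for ESPL1.
PCNA: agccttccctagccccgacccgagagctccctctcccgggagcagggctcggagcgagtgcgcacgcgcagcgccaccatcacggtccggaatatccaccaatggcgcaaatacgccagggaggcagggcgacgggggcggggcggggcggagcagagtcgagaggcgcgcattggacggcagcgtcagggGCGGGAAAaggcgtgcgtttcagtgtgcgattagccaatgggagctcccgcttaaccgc
MCM7: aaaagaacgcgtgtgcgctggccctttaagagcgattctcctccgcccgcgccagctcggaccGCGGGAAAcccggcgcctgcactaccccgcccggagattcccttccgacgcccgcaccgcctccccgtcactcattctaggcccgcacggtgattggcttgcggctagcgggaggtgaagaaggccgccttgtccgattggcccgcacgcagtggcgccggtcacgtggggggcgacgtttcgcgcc
PLK1: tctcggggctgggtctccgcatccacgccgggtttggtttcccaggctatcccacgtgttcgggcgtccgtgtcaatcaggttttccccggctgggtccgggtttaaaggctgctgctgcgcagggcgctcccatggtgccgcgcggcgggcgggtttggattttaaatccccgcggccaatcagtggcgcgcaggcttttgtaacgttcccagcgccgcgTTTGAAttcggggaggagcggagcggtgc
ESPL1: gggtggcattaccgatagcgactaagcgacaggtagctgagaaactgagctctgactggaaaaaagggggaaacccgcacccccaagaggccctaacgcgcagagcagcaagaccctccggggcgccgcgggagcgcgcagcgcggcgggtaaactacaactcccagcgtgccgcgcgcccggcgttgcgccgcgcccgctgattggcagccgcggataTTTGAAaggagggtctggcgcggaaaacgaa
Searched on both strands, TTTCCCGC was in 8 of 35 replication promoters (22.9%) and in 2.56% of all promoters, and TTTGAA in 23 of 37 mitotic promoters (62.2%) and 9.86% of all. Among genes that fell by 2-fold or more the shares were 2.38% and 9.92%. No match of the other motifs searched overlapped those printed, and the promoters were chosen after the matches were known.

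PCNA, the sliding clamp of DNA polymerases, was at 9165, 8994 and 9124 in the untreated libraries and 1589, 2210 and 1926 at 48 h (log2 fold change -2.27, SE 0.10, adjusted p = 2.57e-09), and MCM7 at 31590, 31230 and 32540 in the untreated libraries and 14450, 11580 and 13040 at 48 h (log2 fold change -1.29, SE 0.11, adjusted p = 1.82e-07). FEN1, the nuclease that trims Okazaki fragments, was at 7904, 7897 and 8228 in the untreated libraries and 1079, 1595 and 1310 at 48 h (log2 fold change -2.61, SE 0.14, adjusted p = 5.53e-09). The untreated libraries were close to each other for these genes, and each 48 h library was below them. POLA1, the catalytic subunit of primase-polymerase alpha, fell by 3.11 and CCNE2, a cyclin of S phase entry, by 2.16 on the log2 scale. CDT1, the licensing factor, rose (0.78), as did POLE (0.99), RPA3 and LIG1, the last not with equal library totals.

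Mitosis and kinetochore genes fell in 26 of 44 members and rose in 6 (median -0.33). Of the 44, 1 passed the filter on low values through the untreated libraries alone, so the direction of its change was fixed. PLK1, the polo kinase of mitotic entry, was at 7987, 8452 and 9581 in the untreated libraries and 2980, 2436 and 2824 at 48 h (log2 fold change -1.66, SE 0.12, adjusted p = 5.01e-08), and ESPL1, separase, which cuts cohesin at anaphase, at 3631, 4528 and 4331 in the untreated libraries and 1443, 1607 and 1649 at 48 h (log2 fold change -1.41, SE 0.10, adjusted p = 5.83e-08). AURKA, the spindle pole kinase, was at 3425, 3437 and 3363 in the untreated libraries and 765, 824 and 996 at 48 h (log2 fold change -1.99, SE 0.13, adjusted p = 2.83e-08). In all 3 the 48 h libraries were lower throughout. CDC25A, a phosphatase that activates cyclin-dependent kinases, fell by 1.86. CDK1, the kinase that drives mitosis, was at 6877, 6526 and 6213 in the untreated libraries and 8725, 7988 and 9239 at 48 h and rose (0.40; 0.21, adjusted p = 0.118, with equal library totals), along with CDC25C, PLK4 and NUF2. NDC80 and CENPK, the other members called higher, lost the call without untreated replicate 3 or 48 h replicate 1. Among 30 tested histone genes, measured here through polyadenylated RNA, 13 fell and 2 rose.

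Inhibitors of cyclin-dependent kinases, D and G cyclins and the RB family rose in 9 of 13 members and fell in 3 (median 0.44). CCNG2, a cyclin of cells that leave the cycle and a FOXO target, was at 114, 91.9 and 106 in the untreated libraries and 1892, 2086 and 1670 at 48 h (log2 fold change 4.17, SE 0.18, adjusted p = 1.92e-09) and every 48 h library lay above every untreated one. CDKN1C, the inhibitor p57, was at 461, 426 and 458 in the untreated libraries and 1932, 2964 and 2055 at 48 h (log2 fold change 2.34, SE 0.16, adjusted p = 5.03e-08). CCNG1, cyclin G1, rose from 6151 ± 295 to 28800 ± 982 (2.23), and CCND1, cyclin D1, by 1.70. CDKN1A, p21, was at 231, 255 and 292 in the untreated libraries and 233, 368 and 348 at 48 h with overlapping groups (adjusted p = 0.214; 0.0202 without 48 h replicate 1), and CDKN1B, p27, fell (-0.58). Among FOXO factors and targets 8 of 20 rose and 7 fell, beside 34.4% and 35.3% of all genes. Their median was -0.24, but 0.36 over the 17 members with a mean of at least 50. PIK3IP1, an inhibitor of PI3 kinase, was at 21.4, 14 and 12.1 in the untreated libraries and 532, 718 and 413 at 48 h (log2 fold change 5.05, SE 0.39, adjusted p = 1.26e-07). FBXO32, a ubiquitin ligase of atrophy, had a log2 fold change of 3.36.

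Of 26 BCL2 family and caspase genes 11 rose and 9 fell, beside 34.4% and 35.3% of all genes. MCL1, a short-lived survival protein of the BCL2 family, was at 9922, 9720 and 10200 in the untreated libraries and 2158, 3004 and 2336 at 48 h (log2 fold change -2.01, SE 0.11, adjusted p = 7.95e-09). BCL2L11, the death-promoting BIM, was at 1165, 1498 and 1269 in the untreated libraries and 4150, 4248 and 5052 at 48 h (log2 fold change 1.78, SE 0.15, adjusted p = 1.91e-07), and BMF, a related factor, at 164, 246 and 206 in the untreated libraries and 1475, 859 and 922 at 48 h (log2 fold change 2.37, SE 0.33, adjusted p = 2.91e-05). Both were higher in all 48 h libraries, and MCL1 was lower in all. APAF1, the scaffold of the apoptosome, rose by 2.10 on the log2 scale.

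Transcripts of the integrated stress response, in which ATF4 is translated when eIF2 is phosphorylated, rose in 12 of 19 members and fell in 3 (median 1.14, but 0.56 over 17 members with a mean of at least 50 and 0.56 over 21 without the filter). GDF15, a secreted stress hormone, was at 2006, 2040 and 1626 in the untreated libraries and 19840, 18470 and 20910 at 48 h (log2 fold change 3.39, SE 0.23, adjusted p = 3.48e-08). The RNA of ALDH1L2, an enzyme of mitochondrial folate metabolism, was at 246, 254 and 231 in the untreated libraries and 1647, 1489 and 1415 at 48 h (log2 fold change 2.63, SE 0.12, adjusted p = 2.57e-09), and PPP1R15A, GADD34, which restores translation by dephosphorylating eIF2, at 2854, 2914 and 2186 in the untreated libraries and 14300, 10960 and 10170 at 48 h (log2 fold change 2.15, SE 0.14, adjusted p = 3.48e-08). The groups were apart for all 3. ASNS, asparagine synthetase, rose from 5425 ± 642 to 17340 ± 2337 (1.67), DDIT3, the factor CHOP, by 1.68 and ATF3 by 1.70. XBP1 (-1.42), TRIB3 and CEBPB fell, CEBPB only with the length and GC trend left in. Endoplasmic reticulum chaperones had 9 of 22 members lower and 4 higher, beside 35.3% and 34.4% of all genes.

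Amino acid enzymes and transporters went different ways. ASS1, argininosuccinate synthase, which makes arginine from citrulline, was at 346, 294 and 294 in the untreated libraries and 7474, 7105 and 9382 at 48 h (log2 fold change 4.67, SE 0.15, adjusted p = 5.74e-10). CTH, which makes cysteine from cystathionine, was at 378, 357 and 421 in the untreated libraries and 2597, 2843 and 2841 at 48 h (log2 fold change 2.84, SE 0.12, adjusted p = 1.84e-09). The 48 h values were several times the untreated ones in every library. GPT2, mitochondrial alanine transaminase, rose by 2.34. Of 20 tested enzymes 9 rose and 6 fell. Of the 20, 1 passed the filter on low values through the untreated libraries alone, so the direction of its change was fixed. Of 16 transporters 10 fell and 4 rose (median -0.99). Over all genes 34.4% rose and 35.3% fell. Those lower included SLC6A9, the glycine transporter that supplies heme synthesis (-1.95), SLC38A5 (-2.39) and SLC25A22, the mitochondrial glutamate carrier (-2.87), while SLC7A11, the cystine carrier, rose from 658 ± 46.7 to 2363 ± 195 (1.84).

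Polyamine genes changed in opposite directions. ODC1, ornithine decarboxylase, the first enzyme of the path, was at 30180, 28860 and 27340 in the untreated libraries and 6907, 5408 and 6474 at 48 h (log2 fold change -2.21, SE 0.14, adjusted p = 2.97e-08), and AMD1, which supplies the aminopropyl groups, at 7836, 7588 and 7150 in the untreated libraries and 716, 963 and 709.5 at 48 h (log2 fold change -3.25, SE 0.13, adjusted p = 1.65e-09). SAT1, the acetyltransferase that starts polyamine catabolism, was at 937, 1057 and 1095 in the untreated libraries and 18230, 16610 and 18560 at 48 h (log2 fold change 4.11, SE 0.15, adjusted p = 1.32e-09). None of these groups overlapped. ARG2, mitochondrial arginase, and SMS, spermine synthase, also rose (2.20 and 0.55). In the list 3 of 11 rose and 4 fell, beside 34.4% and 35.3% of all genes. Purine and pyrimidine synthesis had 10 of 20 members lower and 5 higher (median -0.41).

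Among heat shock chaperones 9 of 22 rose and 11 fell, beside 34.4% and 35.3% of all genes. HSPA8, the constitutive HSC70, was at 129800, 121700 and 123200 in the untreated libraries and 40600, 31470 and 35070 at 48 h (log2 fold change -1.81, SE 0.17, adjusted p = 8.41e-07) and DNAJA1, its J-domain partner, at 14850, 14240 and 14640 in the untreated libraries and 3835, 3372 and 3794 at 48 h (log2 fold change -1.99, SE 0.13, adjusted p = 2.16e-08). The inducible HSP70 gene HSPA1A was at 153, 144 and 119.9 in the untreated libraries and 2403, 2533 and 2079 at 48 h (log2 fold change 4.07, SE 0.54, adjusted p = 1.6e-05). HSPA8 and DNAJA1 were lower in all 48 h libraries and HSPA1A higher. HSPA1A, the near-identical HSPA1B and the related HSPA1L, among which reads may be split, summed to 252 ± 110 normalized counts in untreated cells and 4062 ± 118 at 48 h (SD, n = 3), 16.1-fold more, with exact p = 0.1. Proteasome subunits fell in 17 of 30 tested members and rose in 3 (5 without 48 h replicate 2; median -0.28), with PSMC2, an ATPase of the regulatory particle, at -2.03 and PSMB2 of the core at -1.20.

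Sterol synthesis genes rose in 13 of 24 members and fell in 4 (median 0.50). FDFT1, squalene synthase, was at 343, 309 and 386 in the untreated libraries and 4311, 3391 and 3321 at 48 h (log2 fold change 3.40, SE 0.18, adjusted p = 5.78e-09), and MSMO1, a sterol oxidase, at 986, 969 and 955 in the untreated libraries and 4705, 4078 and 4230 at 48 h (log2 fold change 2.16, SE 0.15, adjusted p = 4.52e-08). LSS, lanosterol synthase, which closes the rings of the sterol skeleton, was at 1360, 1421 and 1888 in the untreated libraries and 400.4, 343 and 251 at 48 h (log2 fold change -2.24, SE 0.23, adjusted p = 1.36e-06). The first pair was higher and LSS lower in each 48 h library. Autophagy genes rose in 15 of 22 members and fell in 2 (ATG7 and ATG9A; 4 without 48 h replicate 2; median 0.62). OPTN, optineurin, a receptor that brings ubiquitinated cargo to autophagosomes, rose from 356 ± 29.9 to 2499 ± 228 (2.81), WIPI1 by 2.62 and BNIP3L, a mitophagy receptor, by 1.74. Of 29 lysosomal genes 14 rose and 8 fell, beside 34.4% and 35.3% of all genes. CTSS, cathepsin S, was at 3.13, NPC2, a cholesterol carrier, at 2.65 and CTSE, cathepsin E, at -2.70 on the log2 scale.

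In glycolysis 8 of 23 genes rose and 11 fell, beside 34.4% and 35.3% of all genes. Without untreated replicate 1 or 2, or without 48 h replicate 1 or 3, 5 rather than 8 rose. SLC2A1, the glucose carrier GLUT1, was at 3879, 3501 and 3578 in the untreated libraries and 449, 649 and 438 at 48 h (log2 fold change -2.86, SE 0.24, adjusted p = 2.1e-07) and HK2, hexokinase 2, at 4887, 4992 and 5443 in the untreated libraries and 1267, 1380 and 1471 at 48 h (log2 fold change -1.90, SE 0.10, adjusted p = 7.77e-09). ALDOA, aldolase A, was at 3410, 3520 and 4505 in the untreated libraries and 16260, 16610 and 22020 at 48 h (log2 fold change 2.26, SE 0.13, adjusted p = 8.66e-09). ENO1, enolase 1, fell by 1.06 on the log2 scale, and ENO2, the neuronal form, rose (2.20). The groups were apart for all 5 genes. Of 17 hypoxia genes 10 rose and 5 fell, beside 34.4% and 35.3% of all genes. Of the 17, 1 passed the filter on low values through the untreated libraries alone, so the direction of its change was fixed. Among members with a mean of at least 50, 3 fell. EPAS1, the factor HIF2A, rose by 2.25 and EGLN3, a prolyl hydroxylase that marks it for degradation, fell by 3.81 on the log2 scale.

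The aryl hydrocarbon receptor list had 4 of 6 tested members higher and none lower (median 1.92). CYP1A1, the receptor's classical target, a cytochrome P450, was at 81.4, 93.3 and 103 in the untreated libraries and 5380, 6694 and 3587 at 48 h (log2 fold change 5.76, SE 0.24, adjusted p = 1.65e-09), after means of 953 at 8 h and 1853 at 24 h. TIPARP, a target that feeds back on the receptor, was at 1128, 1335 and 1209 in the untreated libraries and 8155, 7198 and 7511 at 48 h (log2 fold change 2.64, SE 0.16, adjusted p = 1.69e-08), and AHR, the receptor, at 196, 224 and 317 in the untreated libraries and 1076, 1953 and 1338 at 48 h (log2 fold change 2.55, SE 0.23, adjusted p = 4.94e-07). All 48 h libraries were above all untreated ones. NRF2 and antioxidant genes had 12 of 27 lower and 8 higher, beside 35.3% and 34.4% of all genes. SRXN1, sulfiredoxin, was at 2653, 2617 and 2642 in the untreated libraries and 229.6, 329 and 215 at 48 h (log2 fold change -3.38, SE 0.15, adjusted p = 2.29e-09). TXNRD1, thioredoxin reductase, had a log2 fold change of -1.62.

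Interferon-stimulated genes rose in 10 of 17 tested members and fell in 1 (median 0.89). IFITM2, a membrane protein that blocks virus entry, was at 504, 390.4 and 868 in the untreated libraries and 4810, 4121 and 4558 at 48 h (log2 fold change 3.01, SE 0.21, adjusted p = 5.16e-08), and IRF1, a transcription factor of the response, at 784, 515 and 638 in the untreated libraries and 3200, 3334 and 2655 at 48 h (log2 fold change 2.26, SE 0.18, adjusted p = 1.83e-07). Untreated replicate 3 was the highest untreated library for IFITM2 and still far below 48 h. RSAD2, viperin, rose by 2.30. Of the NF-kB list 4 of 14 rose and 2 fell (1 without untreated replicate 3), beside 34.4% and 35.3% of all genes. NFKB1, the p105 subunit, was at 1457, 1388 and 1636 in the untreated libraries and 209.6, 268 and 145 at 48 h (log2 fold change -2.88, SE 0.19, adjusted p = 3.51e-08), and NFKB2, the p100 subunit of the alternative path, at 107, 32.8 and 42.7 in the untreated libraries and 611, 559 and 545 at 48 h (log2 fold change 3.40, SE 0.38, adjusted p = 3.34e-06). Neither overlapped between groups, and they moved in opposite directions.

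Of 17 signalling genes of the BCR-ABL1 and STAT5 axis 6 were higher and 8 lower, beside 34.4% and 35.3% of all genes. BCR, whose promoter drives the fusion gene, was at 4433, 4826 and 5266 in the untreated libraries and 1285, 916 and 868 at 48 h (log2 fold change -2.26, SE 0.13, adjusted p = 1.32e-08). Values are per gene, so RNA of the fusion was not measured apart from that of BCR and ABL1. PIM1, a kinase induced by STAT5, was at 10950, 10600 and 11010 in the untreated libraries and 59090, 74920 and 65540 at 48 h (log2 fold change 2.61, SE 0.14, adjusted p = 6.12e-09), and SOCS3, a feedback inhibitor of cytokine signalling, at 547, 575 and 464 in the untreated libraries and 17.2, 22.6 and 35.1 at 48 h (log2 fold change -4.40, SE 0.24, adjusted p = 7.17e-09). The groups were apart in all 3 genes. GAB2, the adaptor that links BCR-ABL1 to PI3 kinase and RAS, rose (1.58). Of 21 AP-1 and ERK feedback genes 9 fell and 6 rose (3 without untreated replicate 2). Their median was -0.62, but -0.39 without untreated replicate 3, -0.18 without 48 h replicate 3 and -0.31 with the trend in transcript length and GC content removed. FOSL1 (-3.47), EGR1 (-2.93) and FOS (-2.20) were lower, and JUN, another AP-1 subunit, was higher, at 372, 401 and 314 in the untreated libraries and 3602, 3771 and 3859 at 48 h (log2 fold change 3.37, SE 0.22, adjusted p = 2.86e-08).

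RNA of splicing factors fell in 19 of 31 members and rose in 6 (median -0.40). HNRNPA2B1, which binds nascent RNA, was at 33840, 34020 and 36990 in the untreated libraries and 4305, 4139 and 3613 at 48 h (log2 fold change -3.12, SE 0.14, adjusted p = 2.57e-09), TRA2B, a splicing activator, at 11190, 11370 and 12100 in the untreated libraries and 1613, 1955 and 1826 at 48 h (log2 fold change -2.69, SE 0.10, adjusted p = 1.07e-09) and SRSF1 at 23760, 24940 and 25980 in the untreated libraries and 4350, 5272 and 4665 at 48 h (log2 fold change -2.39, SE 0.10, adjusted p = 2.04e-09). Each 48 h library was far below each untreated one in all 3 genes. Clock and output genes rose in 9 of 14 members and fell in 2 (CRY1 and PER2; median 0.96). BHLHE40, a repressor of the clock that also answers stress and hypoxia, was at 3780, 4220 and 6368 in the untreated libraries and 32380, 31190 and 32260 at 48 h (log2 fold change 2.77, SE 0.16, adjusted p = 9.16e-09), PER1 rose by 1.99 and DBP, an output factor, by 2.78.

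Genes of the actin skeleton rose in 16 of 29 members and fell in 7 (median 0.37). ACTB, beta actin, was at 1341, 1537 and 1233 in the untreated libraries and 35230, 34770 and 40820 at 48 h (log2 fold change 4.75, SE 0.17, adjusted p = 9.1e-10) and ACTG1, gamma actin, at 19650, 21660 and 29540 in the untreated libraries and 44920, 33780 and 40600 at 48 h (log2 fold change 0.76, SE 0.15, adjusted p = 0.000606). All 48 h libraries were higher for both. Since reads of the actins may be traded, their sum is given too, 24980 ± 5133 and 76710 ± 7092 normalized counts (SD, n = 3), 3.07-fold more. TMSB4X, thymosin beta 4, which holds actin monomers, rose from 5203 ± 1171 to 32970 ± 4685 (2.68), and ACTN4, an actin crosslinker, fell by 2.86. Of 17 tubulins 7 rose and 9 fell, beside 34.4% and 35.3% of all genes.

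**Figure D5:**
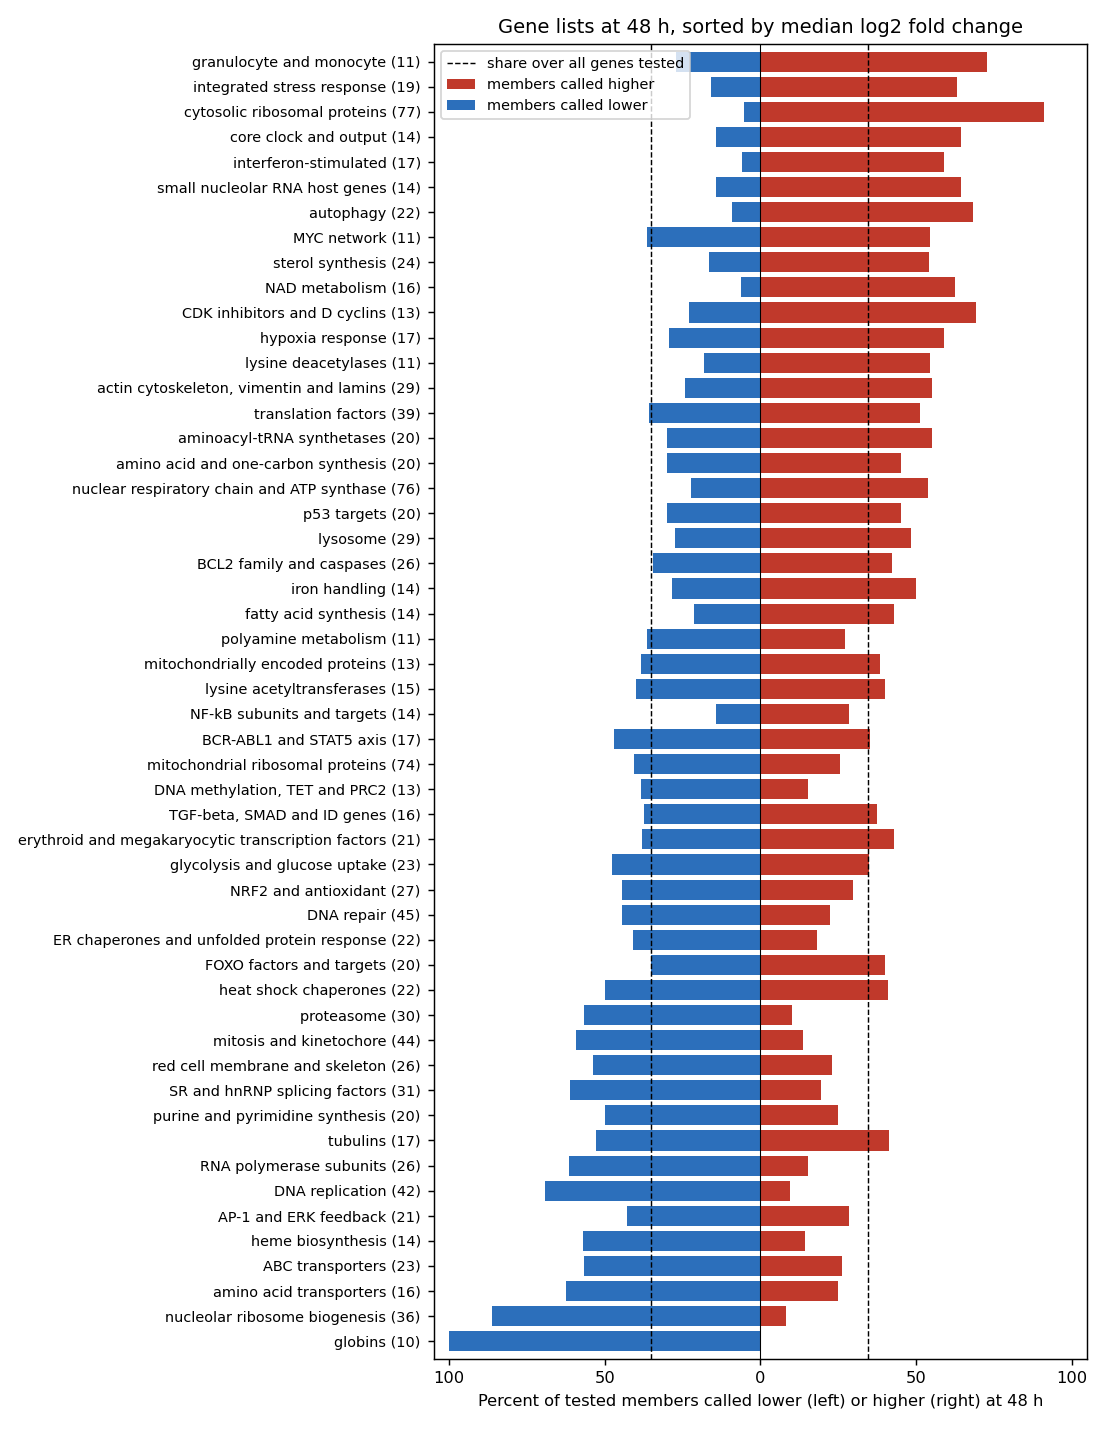
Percent of tested members called higher (to the right) and called lower (to the left) at 48 h for gene lists with at least 10 tested members, with dashed lines at the shares of all genes tested (34.4% higher and 35.3% lower). Ribosomal proteins (70 of 77 higher), autophagy (15 of 22 higher), globins (10 of 10 lower) and nucleolar genes (31 of 36 lower) lie far past the dashed line on their side. Of the granulocyte and monocyte genes drawn, 3 of 11 passed the filter on low values through the 48 h libraries alone. Through the untreated libraries alone passed 1 globin and 1 member each of the red cell membrane, mitosis, p53 target, amino acid synthesis and hypoxia lists.

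The widest changes by fold were in genes with little or no RNA in 1 group. MLPH, melanophilin, an adaptor of vesicle transport, was at 5.06, 1.21 and 1.7 in the untreated libraries and 328, 450.4 and 377 at 48 h. MLPH passed the filter on low values through the 48 h libraries alone, so no test of it is given. RNH1, a ribonuclease inhibitor, was at 96.3, 214 and 129 in untreated libraries and listed at 0 in all 48 h ones. So was RGL2, a Ral exchange factor, from 322, 265 and 293, while WDR46, a nucleolar protein, had 209, 185 and 439 at 48 h and a listed 0 in each untreated library. A value of exactly 0 can be a failed estimate, so no fold is given for these. By gain of normalized counts, which favours long and abundant RNAs, MT-CO1, MT-RNR2, MT-ND4, EEF2, RPL3 and RPS18 came first, and HBG2, HBZ, HSPA8, HBG1, ENO1 and HBA1 lost most.

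Set beside the earlier times, 48 h differed from 24 h in 3910 genes higher (27.4%) and 3920 lower (27.5%), and from 8 h in 4604 higher (32.3%) and 4643 lower (32.6%). These comparisons share the 48 h libraries with the one above. Ribosomal proteins were late, 72 of 77 being higher at 48 h than at 24 h. Of the stress response list 5 of 19 were higher and 10 lower than at 24 h. HSPA1A was at a mean of 64.5 at 8 h and 38 at 24 h and was higher at 48 h than at 24 h by 5.92 on the log2 scale (adjusted p = 1.56e-06). PER1 had means of 521 and 500.5, and ALDOA of 5650 and 3768, before the 48 h levels given above. HBZ, in contrast, had means of 7353 at 8 h and 7422 at 24 h, and KIT of 512 and 558.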

How the data were processed

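Polyadenylated RNA of K-562 cells was sequenced from strand-specific libraries, per the labels' protocols. The submitters' processing notes name cutadapt, Salmon, DESeq2 and GRCh38, without versions. The deposited table gives a signal, gene counts normalized by the authors with DESeq2, for 51112 Ensembl identifiers in 12 libraries. Values are not whole, and only 48.1 to 70.4% of the low values of the 6 libraries compared lay within 0.1 of a multiple of 1 read, so no count test was run. By that step the 6 libraries held about 28115997 to 35119209 reads, and depth limits the precision of low values. Reads of similar transcripts are shared out by estimate in Salmon.

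Symbols came from a gene name table (50026 identifiers) and GENCODE release 29 (267 more), which also gave GRCh38 coordinates. After adding 1, log2 was taken, and genes with at least 10 in at least 3 of the 6 libraries were tested (14245). The test was limma (version 3.58.1, R 4.3.3), with 1 fit over all 12 libraries (8 residual and 4.94 prior degrees of freedom), a mean trend in the prior variance, two-sided tests and Benjamini-Hochberg adjustment over the genes tested, calling an adjusted p under 0.05. Tested on simulated data for 48 h against untreated with 200 of 14245 genes changed by 1 on the log2 scale, the fit recovered 116 (58%) with 3 false calls. The simulated noise was independent and drawn from the fit's own variances, and in the data 69.7% of genes were called. These figures therefore do not measure the power or error of the comparison itself. Summed levels were compared by exact permutation over libraries. Replicate numbers did not pair the samples, with correlations of same-numbered deviations from -0.0048 to 0.0208.

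Gene lists (60, of 1434 distinct entries, 35 not found in the table) and members were chosen with earlier results of these data known. Genes were named by rule. The rule took the 15 largest rises and falls, and up to 4 members per list with the largest change among called genes with a mean of at least 50. It also took the 6 largest gains and losses of counts, the 6 largest late changes each way against 24 h, and SIRT1. The markers of the line given (GATA1, TFRC, ABL1) were taken from a separate list of its expected markers. A few genes that the rule names are not reported here. Others given with values (ACTG1, ALAD, ASNS, CD33, CDK1, CDKN1A, CDKN1B, CDT1, CEBPA, CEBPB, CYBB, DDIT3, DUSP8, ESPL1, GP1BB, HDAC1, HDAC2, MAX, MCM7, MT-ND1, MT-ND5, NDC80, NPM1, POLE, RPS26, SMS, WDR12), members named without values and markers named as 0 were chosen after their values were seen. Promoters came from RefSeq (GRCh38.p14), 10375 of 27305 entries matching a tested gene, and 7 motifs were searched in 300 bases, of which 3 are given. The globin and sterol promoters first meant for printing had no entry or no match.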

Additional observations from a re-analysis of the deposited data

Results flagged for a closer look

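A gene of a list whose changes against untreated cells were called in opposite directions at 24 and 48 h was looked at again through the difference of 48 h from 24 h in the same fit. HSPA1A, the inducible HSP70, differed by 5.92 on the log2 scale (adjusted p = 1.56e-06), with a mean of 38 normalized counts at 24 h and 2338 at 48 h. LSS, lanosterol synthase, differed by -2.92 (adjusted p = 4.91e-07), with means of 2567 and 332. CCT8, a subunit of the chaperonin that folds actin and tubulin, differed by 0.85 (adjusted p = 6.97e-06), with means of 19980 and 36140. KRT18, keratin 18, differed by 0.74 (adjusted p = 0.000142), with means of 8502 and 14280, but its difference from untreated cells at 48 h lost its call in several alternatives. The causes were not tested.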

How the results depend on the processing

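Under 20 other settings the counts of genes called and of genes changed by 2-fold or more, in each direction, stayed within 1.5 times those above. Total calls were 8489 at a threshold of 0.01, 8680 with a mean of at least 50, 10572 without the filter, 9608 with the 6 libraries alone, 9258 to 9643 when each library was left out in turn, and 9996 with a replicate block, which is no paired design since the numbers do not pair the samples. Equal library totals moved the median of all genes to -0.21 and the share of higher calls from 49.3 to 40.7%. That scaling lowered several list counts of higher members, among them iron handling from 7 to 4, acetyltransferases from 6 to 2 and mitosis from 6 to 3. Glycolysis went from 8 to 5, AP-1 and ERK feedback from 6 to 3 and the proteasome from 3 to 1. Equal totals also raised counts of lower members. Among these were the actin list from 7 to 12, autophagy from 2 to 5, DNA methylation from 5 to 8, NAD metabolism from 1 to 3 and NF-kB from 2 to 4. Removing the trend with transcript length and GC content turned JARID2, a PRC2 cofactor, from -0.69 to 0.0136, NDC80 from 0.23 to -0.13 and WDR12 from 0.25 to -0.13, and quantile normalization turned NPM1 from 0.33 to -0.32. Among genes tried in the alternatives, calls of BCL2, CDK1, CEBPA, CEBPB, CENPK, CYBB, GP1BB, JARID2, KRT18, LIG1, MT-CO1, NDC80, RPS7, SAMD9, SIRT6, SMPDL3A, SNHG12 and WDR12 were lost in at least 1 setting at the threshold of 0.05, and of HSPA1L and ITGB3 at 0.01, and the causes were not tested. After quantile normalization the ribosomal protein median was 0.65 rather than 1.08, EEF2 was at 0.88, RPL3 at 1.05, ENO1 at -1.65 and HBG2 at -2.73. HK2 was at -1.21 with the length and GC trend removed. The filter at 10 and the depth leave changes of rarer RNAs unseen.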

Other observations

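Genes differed by class at 48 h in ways no list above covers, given here as values without a cause. Zinc finger genes with a ZNF number fell in 191 of 388 tested members and rose in 71 (median log2 fold change -0.46), with 92 lower and 34 higher of 199 on chromosome 19 and 99 lower and 37 higher of 189 elsewhere. Of 611 genes annotated as antisense, 44.8% were lower and 16.5% higher (median -0.74), and of 602 long intergenic non-coding genes 36.9% were lower and 20.4% higher (median -0.42), beside 35.2% and 36.2% of 12030 protein-coding genes. Of 90 sense intronic genes 42.2% were higher and 20% lower. Pseudogenes and antisense genes are rare RNAs, and reads may be shared with their parent or partner genes.

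The change also ran with transcript length, taken for each gene as the median over all its GENCODE transcripts, partial ones included. Genes under 500 bases had a median log2 fold change of 0.36 (327 genes), those of 500 to 1000 bases 0.15 (6665 genes) and those over 3000 bases -0.46 (1535 genes, 46.8% lower and 21.4% higher). Of 200 genes with a mean over 20000 normalized counts, 56.5% were higher and 27.5% lower.

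A few genes were listed at 0 throughout 1 group. For 10 entries there were over 50 normalized counts in all untreated libraries and a listed 0 in all at 48 h, among them SLC39A4, a zinc importer, at 169, 168 and 170.2 in untreated cells, TEX15, a germ cell gene, at 157, 124 and 142, and MINAR1 at 119, 118 and 124. The reverse held for 3 entries, among them DUSP8, a phosphatase of stress kinases, at 79.7, 58.1 and 52.4 at 48 h. In all, 581 tested genes were at 0 in at least 1 of the 6 libraries.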
